A study of Mus musculus with 35 samples.

Results

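The families compared here are the ligands and receptors of axon guidance: ephrins and their Eph receptors, semaphorins and plexins, Slits and Robo receptors, and netrins with their receptors Dcc, Neo1 and the Unc5 genes. Members were the protein-coding genes whose GENCODE symbols carry these family names, together with Ntn1, Ntn4, Ntn5, Ntng1, Ntng2, Dcc and Neo1. A total of 69 members, 36 ligands and 33 receptors, were found among the 21819 protein-coding genes and 52636 gene identifiers of the count files. Unc50 matches the letters of the rule but belongs to none of these families, so it was set apart, and Ntn3 was not analysed here.

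RNA was sequenced from cells of the anterior and the posterior basolateral amygdala, cut out under a laser capture microscope, in female mice of the strains C57BL/6J and B6D2F1N. Mice lived in standard cages or in enriched housing, in which a playground was open for 1 h each day from postnatal day 77. All of them, controls included, were kept on restricted food, were trained on a touchscreen from postnatal day 70 for 37 to 90 days, and had completed a cognitive judgment bias test. The 35 libraries came from 19 mice, 8 of C57BL/6J and 11 of B6D2F1N, and 16 mice gave a library of each portion. For the anterior portion there were 4 libraries of C57BL/6J in standard and 2 in enriched housing, and 5 of B6D2F1N in each housing. For the posterior portion there were 4 and 4 libraries of C57BL/6J, and 5 of B6D2F1N in standard and 6 in enriched housing. The portions carry the names the labels give them, although the bregma positions in the study's methods place the portion called posterior in front of the one called anterior.

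These families are best known for steering growing axons. Ephrins sit in the membrane of one cell and activate Eph receptor kinases on its neighbour, semaphorins signal through plexins, Slits through Robo receptors, and netrins attract or repel axons according to whether Dcc or an Unc5 receptor is present. In the adult brain many of the same molecules stay at synapses, where they take part in spine shape, receptor placement and plasticity, and in the amygdala they are known from studies of fear learning.

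Depth was similar in all libraries, between 16938534 and 27352623 counts assigned to genes. The libraries of B6D2F1N standard mouse 1 held 0 counts of Xist, the RNA made from the inactive X chromosome, in both portions, whereas the other libraries held 1191 to 4831, and none held more than 1 count of 4 Y-linked genes. Markers of choroid plexus, the tissue in the ventricles that secretes cerebrospinal fluid, summed to 13868 and 14314 CPM, which are counts scaled to library size, in the posterior libraries of B6D2F1N enriched mice 1 and 3, against 4504 CPM or less elsewhere. Markers of striatal projection neurons were highest, at 842 and 477 CPM, in the posterior libraries of B6D2F1N standard mice 4 and 5.

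Levels per length differed widely among members. On the scale of RPKM, the CPM divided by the exon length in kilobases, averaged over 35 libraries, 12 members lay above 10 and 18 below 1. The EphA receptors Epha7, at 45.4 RPKM, and Epha4, at 33.3, had the highest levels of all members, and Epha5 had a level of 16.6. Among the ligands the levels were highest for Efnb3, a transmembrane ephrin, at 31.0 RPKM, and Efna5, a lipid-anchored ephrin, at 16.4. In the other families the highest member was Neo1, which binds netrins and repulsive guidance molecules, at 14.3 RPKM, Sema4a at 13.4, Ephb6, an Eph receptor without kinase activity, at 12.4, Plxnc1 at 10.5, Robo2 at 9.71, Sema3e at 9.12, Ntng1 at 5.49 and Slit1 at 5.35. Secreted netrins were at the low end, and the highest of them, Ntn1, reached 0.673 RPKM. All 69 members passed the minimum of 10 counts in each of the 13 comparisons, but 12 of them, none above 0.593 RPKM, had 0 counts in at least 1 library, most often Efna4 with 14.

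**Figure D1:**
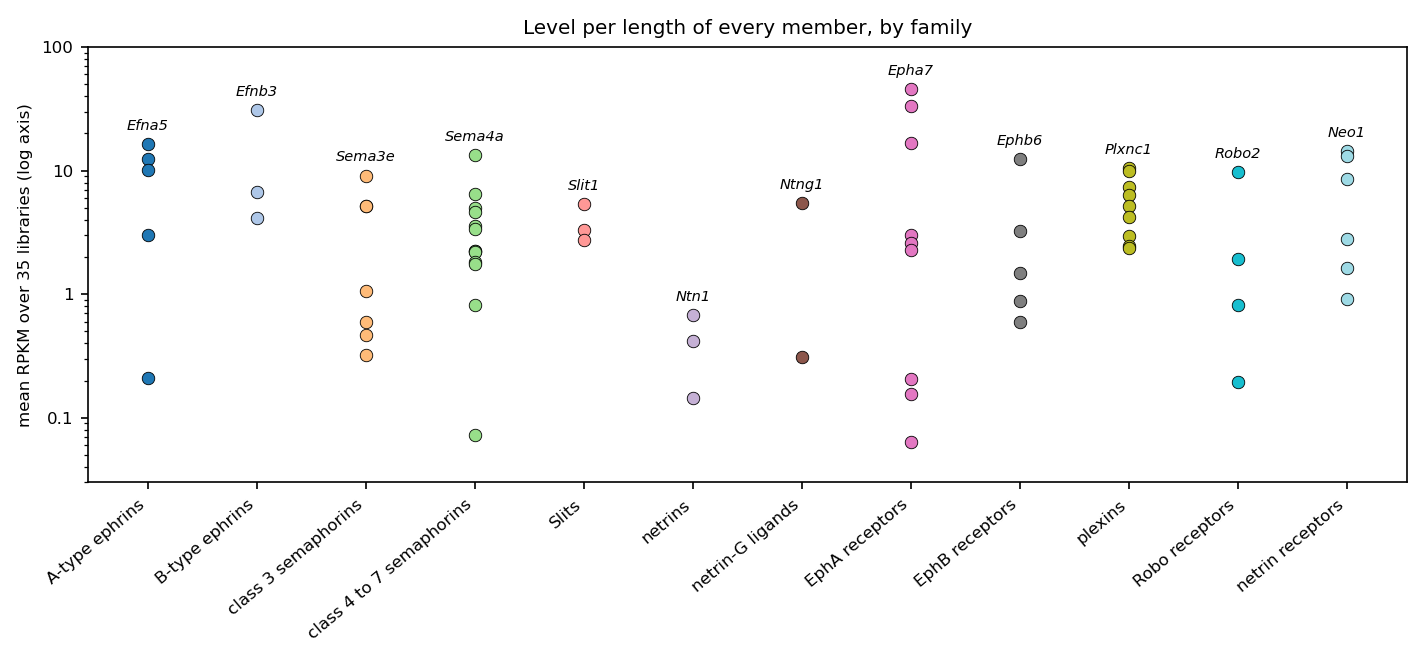
Mean level per length of all 69 members by family, in RPKM on a log axis. Each point is 1 gene averaged over 35 libraries and the highest member of each family is named, from Epha7 at 45.4 RPKM down to Ntn1 at 0.673.

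The first comparison asks which members differ between both portions of the same mouse, within each strain, with both housings in 1 fit. In C57BL/6J, 12 of 69 members passed an adjusted p of 0.05 in edgeR's quasi-likelihood test, 3 higher and 9 lower in the posterior portion. Over all 25751 genes tested in that strain, 3.64% passed, 1.54% higher and 2.1% lower. In B6D2F1N, 10 members passed, 2 higher and 8 lower, against 4% of all 27761 genes, 1.62% higher and 2.37% lower. DESeq2 called 17 members there, and 7.183% of the same genes. Of the members, 17.4% were thus called in C57BL/6J and 14.5% in B6D2F1N. The median log2 fold change of all members was -0.06 in C57BL/6J and -0.09 in B6D2F1N, beside medians of 0.01 and 0.15 over all genes. Because each library pooled captured cells of several types, fewer cells of a type and less RNA per cell cannot be told apart.

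Called in both strains were 7 members: the ligands Sema3a, Sema3e and Efnb3 and the receptors Epha5, Epha7, Plxna4 and Robo2. They are 58.3% of the members' calls in C57BL/6J and 70% of those in B6D2F1N. Over all genes 497, or 2% of the 24855 tested in both strains, were called in both, which is 53.0% of the C57BL/6J calls and 44.8% of the B6D2F1N calls. Efnb3 was higher in the posterior portion and the other 6 were lower. These 7 members moved in the same direction in all 6 C57BL/6J and all 10 B6D2F1N mice. They were picked by a paired test on these mice, so this is no separate support. Members without a call, such as Efna1 and Ephb3, also moved in 1 direction in all 6 C57BL/6J mice. In C57BL/6J the levels of the portions did not overlap for 9 of 69 members (13.0%), these 7 with Efna5 and Slit2, and for 2.44% of all genes. In B6D2F1N they overlapped for all 69 members, and did not overlap for 0.198% of all genes. Over all members, 54 of 69 (78.3%) had the same sign in both strains, which share no mice, beside 65.0% of the 24855 genes tested in both.

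**Figure D2:**
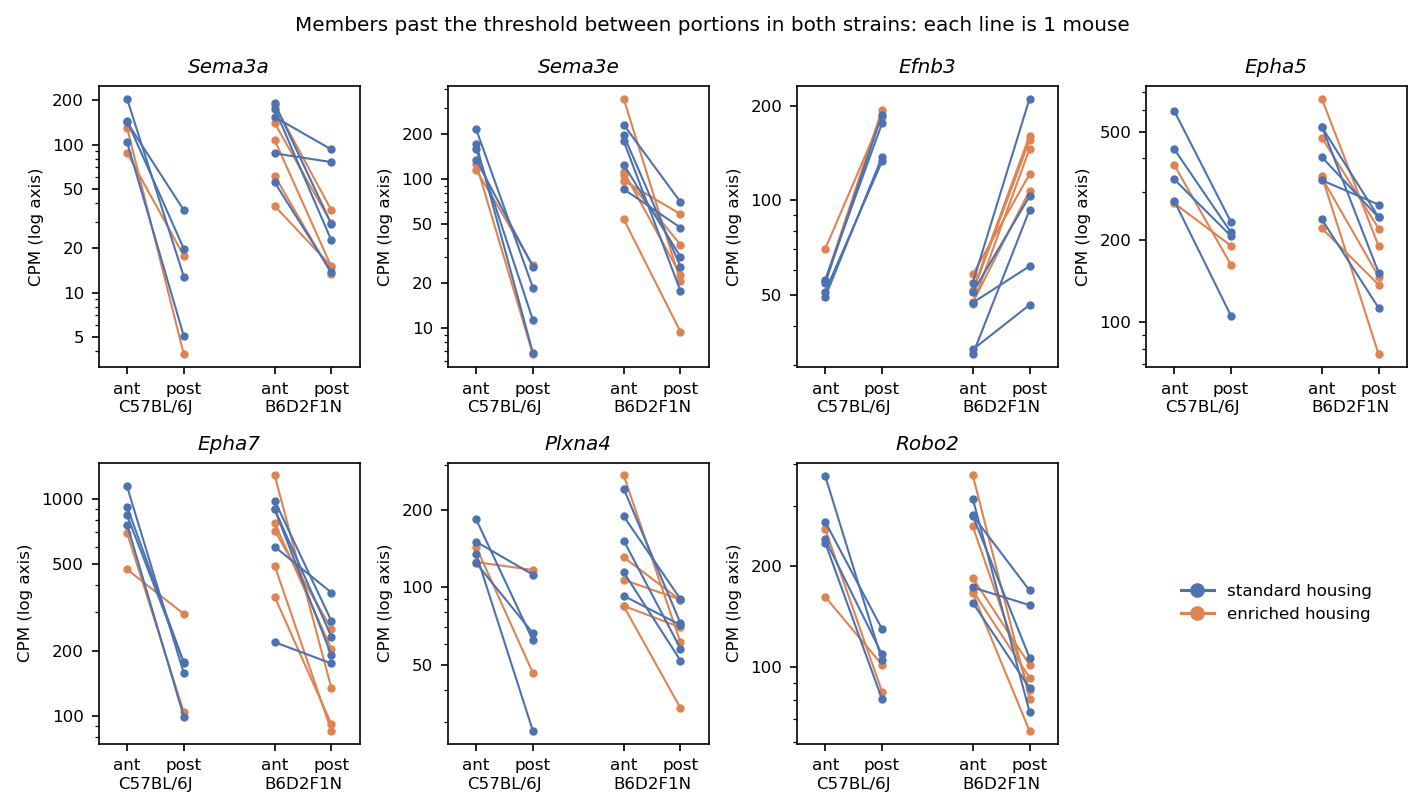
Level in CPM, on a log axis, of the 7 members past the threshold in both strains. Each line joins the anterior and posterior library of 1 mouse, 6 of C57BL/6J and 10 of B6D2F1N, coloured by housing, and Efnb3 rises in all 16 mice while the other 6 fall in all 16.

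Among called members the secreted semaphorins Sema3a and Sema3e gave the largest differences. Sema3a, a repellent that acts through plexins of the A class together with neuropilins, ranged in C57BL/6J from 88.2 CPM over a median of 136 to 204 in the anterior portion, and from 3.82 over 15.3 to 36.0 CPM in the posterior portion. In B6D2F1N, Sema3a ranged from 38.5 over 124 to 190 CPM in anterior libraries and from 13.4 over 25.8 to 92.7 CPM in posterior ones. Its level was therefore 10.6-fold lower in the posterior portion in C57BL/6J (log2 fold change -3.40 ± 0.34, SE, adjusted p = 8.07e-06) and 3.93-fold lower in B6D2F1N (-1.98 ± 0.24, adjusted p = 0.000109). The highest posterior values in B6D2F1N, 92.7 and 76.2 CPM, were those of standard mice 4 and 5, the mice with the most striatal markers. Without both of these mice the log2 fold change was -2.33, with 13 members and 3.192% of all genes called in B6D2F1N, and the part of those cells in the difference was not tested.

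Sema3e, which binds Plxnd1 without a neuropilin, followed the same pattern. In C57BL/6J its level ran from 115 over 147 to 215 CPM in anterior libraries and from 6.65 over 15.0 to 26.3 CPM in posterior ones, a 10.9-fold difference (log2 fold change -3.45 ± 0.29, adjusted p = 1.39e-06). In B6D2F1N the anterior level ran from 53.6 over 118 to 343 CPM and the posterior level from 9.43 over 27.9 to 69.9 CPM, a 4.55-fold difference (-2.19 ± 0.27, adjusted p = 0.00013). Without B6D2F1N standard mice 4 and 5 it was -2.10. Its receptor Plxnd1 was not called, with log2 fold changes of -0.66 ± 0.26 (adjusted p = 0.225) in C57BL/6J and -1.24 ± 0.39 (adjusted p = 0.0872) in B6D2F1N.

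Both genes lie in a run of class 3 semaphorins on chromosome 5 that holds Sema3d, Sema3a, Sema3e and Sema3c in this order (GRCm38). Sema3a (chr5:13125414-13602565) ends 423 kb before Sema3e (chr5:14025276-14256689), with 1 protein-coding gene between them. Sema3d lies 536 kb before Sema3a with none between, and Sema3c lies 3318 kb beyond Sema3e, with 16 protein-coding genes between. Sema3d was not called in either strain, with log2 fold changes of -0.23 ± 0.27 and 0.35 ± 0.67, and Sema3c was called in B6D2F1N alone. Sema3b, Sema3f and Sema3g, from other chromosomes, were not called. Sema3f, at a low level, had higher posterior values in 10 of 10 B6D2F1N mice (1.81 ± 0.53, adjusted p = 0.0677), with medians of 0.815 and 2.82 CPM, and in 3 of 6 C57BL/6J mice.

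As examples, promoters are shown for the pair of semaphorins and the pair of EphA receptors that fell in both strains. Each runs from 250 bases before to 50 bases after a RefSeq transcript start (GRCm38.p6), and capitals mark the GC box GGGCGG or its reverse complement CCGCCC, searched on both strands. They lie at chr5:13396534-13396833 on the plus strand for Sema3a, chr5:14025026-14025325 on the plus strand for Sema3e, chr5:84417333-84417632 on the minus strand for Epha5 and chr4:28812881-28813180 on the plus strand for Epha7.
Sema3a: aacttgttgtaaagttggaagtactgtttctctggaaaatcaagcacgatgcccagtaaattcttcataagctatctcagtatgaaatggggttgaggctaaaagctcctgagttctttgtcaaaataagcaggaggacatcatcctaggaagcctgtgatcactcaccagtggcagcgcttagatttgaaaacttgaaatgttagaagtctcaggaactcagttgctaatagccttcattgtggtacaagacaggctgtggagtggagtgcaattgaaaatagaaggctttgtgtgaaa
Sema3e: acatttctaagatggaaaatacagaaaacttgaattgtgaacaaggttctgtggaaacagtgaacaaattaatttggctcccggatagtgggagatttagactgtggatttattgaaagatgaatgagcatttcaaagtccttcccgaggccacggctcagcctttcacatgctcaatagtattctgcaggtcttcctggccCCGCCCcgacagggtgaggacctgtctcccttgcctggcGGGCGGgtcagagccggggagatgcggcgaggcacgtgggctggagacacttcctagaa
Epha5: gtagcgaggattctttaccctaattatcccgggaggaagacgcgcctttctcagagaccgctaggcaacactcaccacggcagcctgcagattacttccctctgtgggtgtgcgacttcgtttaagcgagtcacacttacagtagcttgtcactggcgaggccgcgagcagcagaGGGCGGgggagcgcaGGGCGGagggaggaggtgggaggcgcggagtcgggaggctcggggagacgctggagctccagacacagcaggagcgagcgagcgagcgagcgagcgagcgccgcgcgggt
Epha7: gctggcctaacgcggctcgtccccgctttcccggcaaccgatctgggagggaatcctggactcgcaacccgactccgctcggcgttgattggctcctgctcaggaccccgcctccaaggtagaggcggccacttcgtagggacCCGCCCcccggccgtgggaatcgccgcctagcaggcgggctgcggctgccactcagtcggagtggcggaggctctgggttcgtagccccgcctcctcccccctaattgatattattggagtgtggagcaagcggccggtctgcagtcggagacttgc
The Sema3a promoter holds no GC box, 2 CpG dinucleotides and 41.3% G and C, and its start lies within the GENCODE gene body. The Sema3e promoter holds 2 GC boxes and 11 CpG dinucleotides, that of Epha5 holds 2 and 30, and that of Epha7 holds 1 and 28. A second listed Epha7 promoter, chr4:28812895-28813194, overlaps the one shown and holds 1 and 27. A GC box was found in 69.3% of the 75 promoters listed for 59 members and in 35.7% of all 32851 promoters, and the median number of CpG dinucleotides was 20 and 7. The motif TATAAA, searched on both strands, was in 2.67% of the members' promoters and 13.6% of all, and CANNTG was in 50.7% and 72.3%. None of the 3 Robo2 promoters held a GC box, and Efnb3 and Plxna4 had no entry. Such matches describe letters in a window and were not related to binding of any factor.

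Efnb3, a transmembrane ligand of EphB receptors and of Epha4 that is found at synapses, was the 1 shared member that rose toward the posterior portion. In C57BL/6J its level ran from 49.4 over 55.1 to 70.2 CPM in anterior libraries and from 133 over 180 to 194 CPM in posterior ones, 2.99-fold higher (log2 fold change 1.58 ± 0.15, adjusted p = 4.58e-06). In B6D2F1N it ran from 32.5 over 49.3 to 58.3 CPM and from 46.6 over 114 to 210 CPM, 2.38-fold higher (1.25 ± 0.16, adjusted p = 0.000137). The other B-type ephrins were not called, with log2 fold changes of 0.19 and -0.40 in C57BL/6J and 0.25 and -0.43 in B6D2F1N for Efnb1 and Efnb2. None of the 5 A-type ephrins was called in either strain. Efna5 was lower in the posterior portion in all 6 C57BL/6J mice but did not pass (-0.64 ± 0.21, adjusted p = 0.13).

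Among the EphA receptors, which bind mainly the lipid-anchored ephrins, 4 of 9 were called in C57BL/6J and 2 of 9 in B6D2F1N, beside 3.64% and 4% of all genes. Epha7 ran in C57BL/6J from 473 over 801 to 1139 CPM in anterior libraries and from 99.4 over 167 to 295 CPM in posterior ones. In B6D2F1N it ran from 219 over 743 to 1282 CPM and from 85.4 over 197 to 370 CPM. Its level was 5.02-fold lower in the posterior portion in C57BL/6J (log2 fold change -2.33 ± 0.24, adjusted p = 1.12e-05) and 3.53-fold lower in B6D2F1N (-1.82 ± 0.22, adjusted p = 0.00011).

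Epha5 differed less than Epha7. In C57BL/6J its levels were 273, 356 and 597 CPM (lowest, median and highest) in the anterior portion and 105, 199 and 233 CPM in the posterior portion, 2.05-fold lower (log2 fold change -1.03 ± 0.16, adjusted p = 0.000566). In B6D2F1N they were 221, 374 and 662 CPM and 76.2, 171 and 270 CPM, 2.28-fold lower (-1.19 ± 0.16, adjusted p = 0.000297). Epha4, the EphA receptor that also binds B-type ephrins, went the other way. In C57BL/6J its levels were 149, 163 and 264 CPM in anterior libraries and 232, 364 and 490 CPM in posterior ones (log2 fold change 0.91 ± 0.19, adjusted p = 0.00859), higher in 6 of 6 mice, and this call was lost without standard mouse 4 (0.78, adjusted p = 0.0589). In B6D2F1N the difference was 0.27 ± 0.21 (adjusted p = 0.588), with 6 of 10 mice higher. Epha3 (-1.25 ± 0.33, adjusted p = 0.0385) was called in C57BL/6J and not in B6D2F1N (-0.84 ± 0.26, adjusted p = 0.081). Its C57BL/6J call was lost under 7 of 11 alternative settings, the omission of each standard mouse and of enriched mouse 3 among them. None of the 5 EphB receptors was called in either strain.

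Of the plexins, the receptors of semaphorins, 3 of 9 were called in C57BL/6J and 1 of 9 in B6D2F1N, beside the same 3.64% and 4% of all genes. Plxna4, a partner of neuropilins in the response to Sema3a, had levels of 124, 139 and 184 CPM in anterior libraries and 27.6, 64.3 and 117 CPM in posterior ones of C57BL/6J, 2.22-fold lower (log2 fold change -1.15 ± 0.23, adjusted p = 0.00676). In B6D2F1N they were 84.5, 123 and 273 CPM and 33.9, 70.6 and 90.0 CPM, 2.03-fold lower (-1.02 ± 0.18, adjusted p = 0.00267). Without the pairing by mouse the C57BL/6J call of Plxna4 was narrowly lost (adjusted p = 0.051). Plxnc1, the receptor of Sema7a, rose 2.00-fold toward the posterior portion in C57BL/6J, from 36.2, 49.2 and 73.4 CPM to 58.6, 108 and 141 CPM (1.00 ± 0.19, adjusted p = 0.00378), in 6 of 6 mice. In B6D2F1N it differed by 0.57 ± 0.22 (adjusted p = 0.189), with 7 of 10 mice higher. Plxna2 was lower in C57BL/6J (-0.63 ± 0.16, adjusted p = 0.0357) and just missed the threshold in B6D2F1N (-0.57 ± 0.16, adjusted p = 0.0505). Its C57BL/6J call was lost under 6 of 11 settings, including the omission of standard mouse 1, 2 or 3 or of enriched mouse 3.

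Robo2, a Slit receptor, fell in both strains, while its ligand Slit2 was called in 1. In C57BL/6J, Robo2 levels were 162, 248 and 370 CPM in anterior libraries and 80.5, 103 and 130 CPM in posterior ones, 2.46-fold lower (log2 fold change -1.30 ± 0.17, adjusted p = 0.000116). In B6D2F1N they were 155, 223 and 371 CPM and 64.7, 90.0 and 169 CPM, 2.31-fold lower (-1.21 ± 0.18, adjusted p = 0.000599). Robo1, the neighbouring gene on chromosome 16 with no protein-coding gene between, was not called, with log2 fold changes of 0.48 ± 0.21 (adjusted p = 0.326) in C57BL/6J and 0.39 ± 0.21 (adjusted p = 0.398) in B6D2F1N. Slit2 had levels of 83.9, 103 and 128 CPM in anterior libraries and 21.7, 43.9 and 76.1 CPM in posterior ones of C57BL/6J without overlap, 2.28-fold lower (-1.19 ± 0.22, adjusted p = 0.00348). In B6D2F1N its difference was -0.47 ± 0.19 (adjusted p = 0.224), with 8 of 10 mice lower. Slit1 and Slit3 were not called in either strain.

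**Figure D3:**
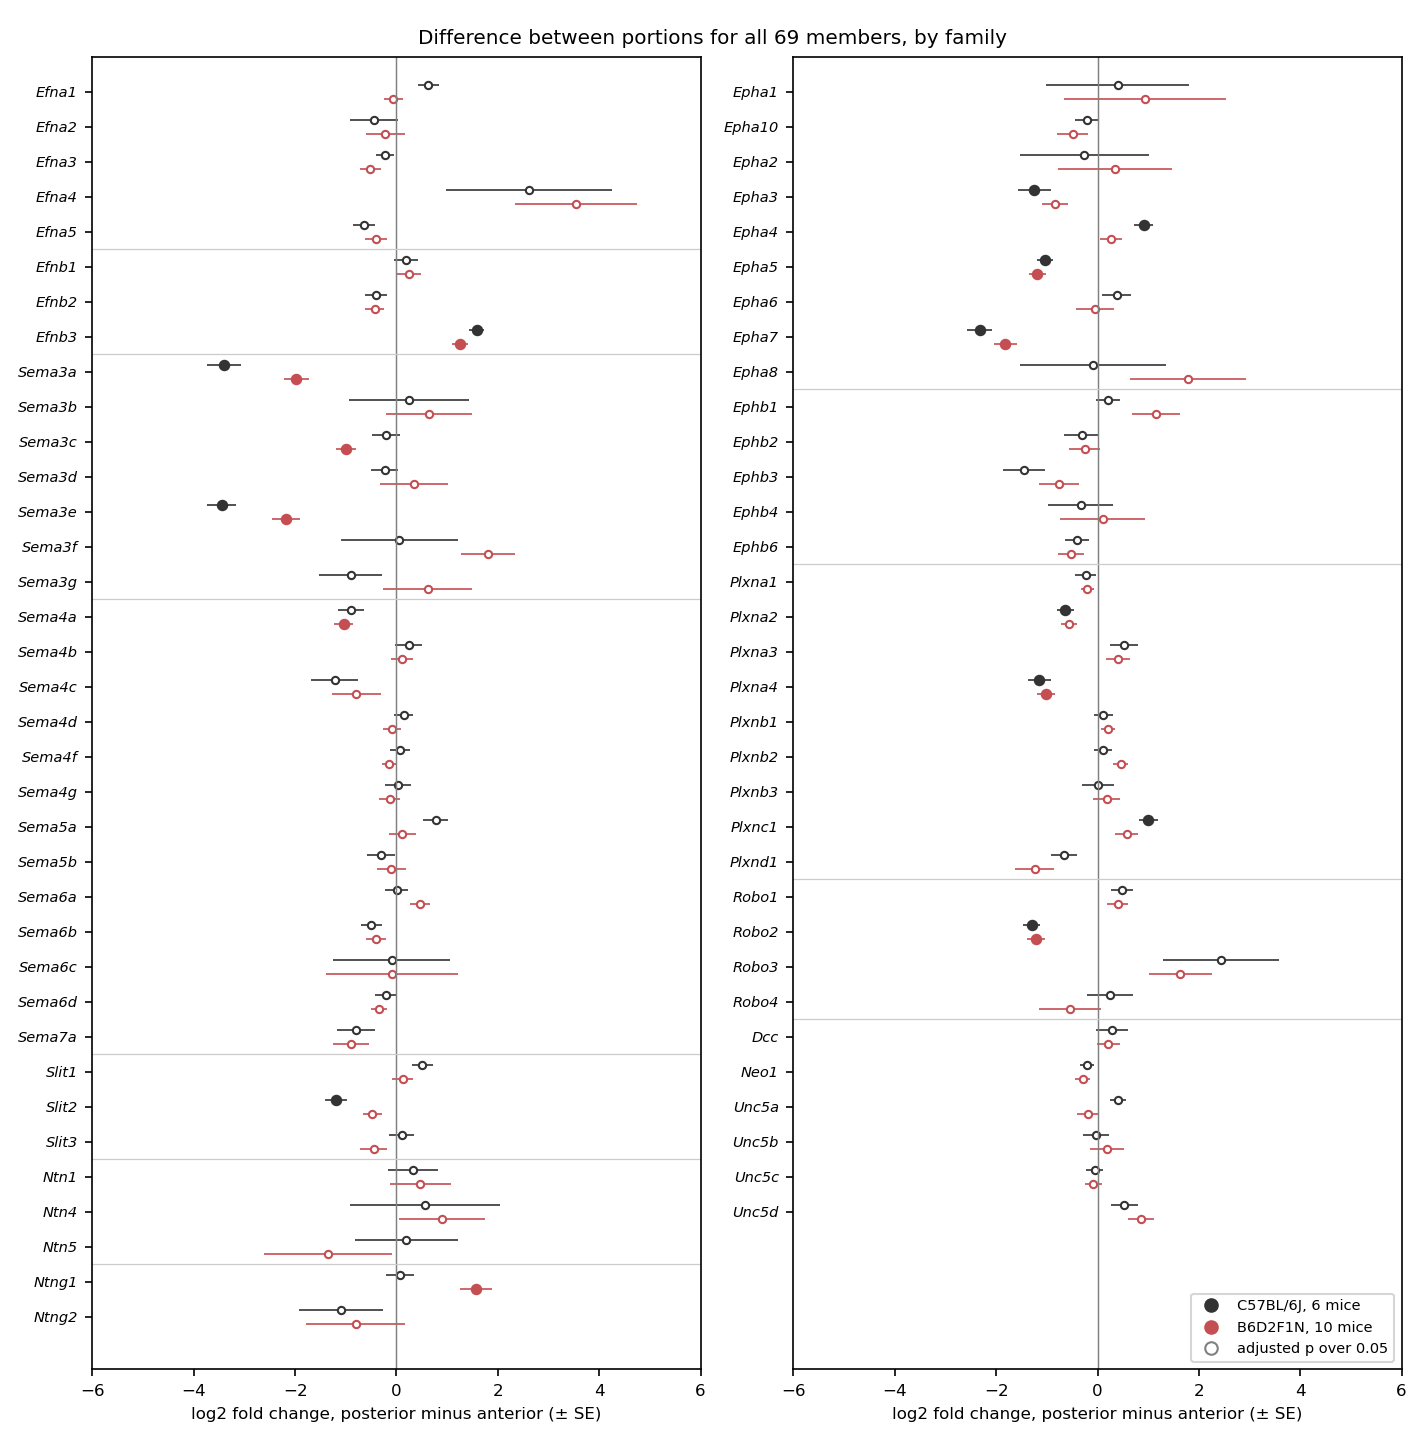
Log2 fold change between portions (posterior minus anterior, with SE bars) of all 69 members in C57BL/6J (black, 6 mice) and B6D2F1N (red, 10 mice), ordered by family with filled points for an adjusted p of at most 0.05. The filled points furthest from 0 are Sema3a and Sema3e in both strains, and the 15 members called in at least 1 strain have the same sign in both.

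Members called in B6D2F1N alone were Sema3c, Sema4a and Ntng1. Sema3c, a secreted semaphorin, had levels of 24.1, 43.0 and 61.8 CPM in anterior libraries and 11.1, 24.2 and 26.3 CPM in posterior ones, 2.00-fold lower (log2 fold change -0.999 ± 0.19, adjusted p = 0.00499) and lower in 9 of 10 mice. In C57BL/6J its difference was -0.20 ± 0.28 (adjusted p = 0.855), with 3 mice in each direction. Sema4a, a transmembrane semaphorin, had levels of 34.1, 91.7 and 203 CPM and 29.0, 45.0 and 62.8 CPM, 2.06-fold lower (-1.04 ± 0.19, adjusted p = 0.00308). In C57BL/6J Sema4a had a difference of -0.90 ± 0.25 and missed the threshold (adjusted p = 0.0547). Ntng1, a membrane-anchored relative of the netrins that binds the synaptic protein Lrrc4c, was 2.97-fold higher in the posterior portion (1.57 ± 0.31, adjusted p = 0.0058), from 10.2, 24.4 and 54.6 CPM to 24.5, 81.1 and 126 CPM, and higher in 9 of 10 mice. In C57BL/6J its anterior levels of 12.8, 23.2 and 61.3 CPM and posterior levels of 11.1, 30.2 and 43.8 CPM overlapped (0.07 ± 0.27, adjusted p = 0.967). Lrrc4c itself differed by -0.45 ± 0.17 in B6D2F1N (adjusted p = 0.188).

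**Figure D4:**
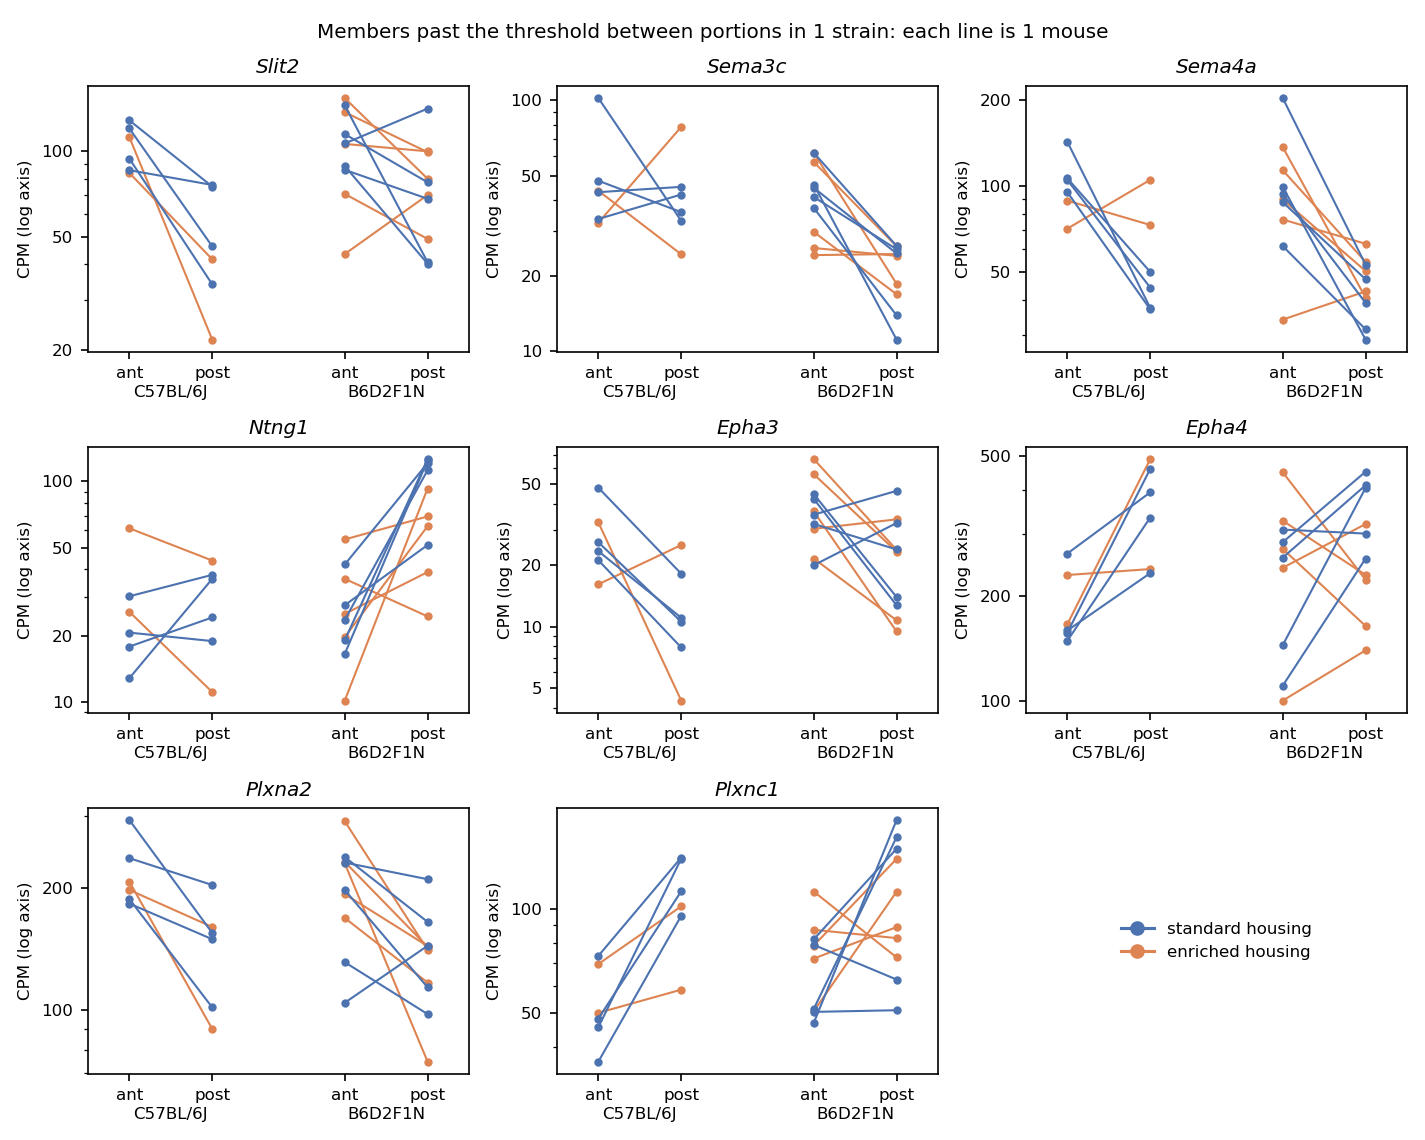
Level in CPM, on a log axis, of the 8 members past the threshold between portions in 1 strain alone. Each line joins both libraries of 1 mouse, and the lines of Ntng1 rise in 9 of 10 B6D2F1N mice and in 3 of 6 C57BL/6J mice.

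Of the 8 members called in 1 strain alone, Sema4a, Epha3 and Plxna2 were called in both strains with DESeq2. A call in 1 strain and not in the other does not show that the strains differ, so the difference between the strains' portion effects was tested itself. No member passed, and none of all 29437 genes did (0% called). At an unadjusted p under 0.05 there were 6 members (8.7%), Sema3a, Ntng1, Sema3e, Efna1, Sema3c and Slit2, and 2.96% of all genes. The portion effect of Sema3a was smaller in B6D2F1N by 1.43 ± 0.44 on the log2 scale (unadjusted p = 0.00298), and that of Sema3e by 1.26 ± 0.43 (unadjusted p = 0.00686). The effect of Ntng1 was larger in B6D2F1N by 1.498 ± 0.47 (unadjusted p = 0.00357). Each of these had an adjusted p of 1 in edgeR's test, and DESeq2 called 0 members and 0% of all genes as well.

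The other genes of the pathway were described from a list of 18 co-receptors and further ligands and a list of 33 intracellular effectors. Of the co-receptors, 2 rose and 1 fell toward the posterior portion in C57BL/6J, and 0 rose and 3 fell in B6D2F1N, so 3 of 18 were called in each strain beside 3.64% and 4% of all genes. Nell1, named here as a relative of the Robo3 ligand Nell2, fell in both strains (log2 fold change -1.27 ± 0.18, adjusted p = 0.00029, and -1.11 ± 0.26, adjusted p = 0.0172). Nrp2, a neuropilin that pairs with plexins for class 3 semaphorins, rose in C57BL/6J from 31.0, 35.7 and 70.5 CPM to 72.9, 91.8 and 153 CPM (1.24 ± 0.21, adjusted p = 0.00165). In B6D2F1N the levels of Nrp2 overlapped, with 53.7 and 63.8 CPM as medians. Flrt3, a ligand of Unc5 receptors and latrophilins, rose in C57BL/6J (1.18 ± 0.17, adjusted p = 0.000367). In B6D2F1N, Adam10, the protease that cleaves ephrins, fell (-0.51 ± 0.12, adjusted p = 0.0232), and so did Nell2 (-0.59 ± 0.16, adjusted p = 0.0416).

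Among the effectors, 1 rose and 1 fell in C57BL/6J, and 2 rose and 4 fell in B6D2F1N, which is 2 and 6 of 33 beside the same shares of all genes. Rock2, a kinase that acts on the cytoskeleton, fell in both strains (-0.69 ± 0.16, adjusted p = 0.0144, and -0.64 ± 0.13, adjusted p = 0.00589). Dpysl3, a collapsin response mediator, rose in C57BL/6J (0.93 ± 0.19, adjusted p = 0.00769), where Dpysl5 did not pass (1.25 ± 0.35, adjusted p = 0.0547). Tiam1, an activator of Rac (0.75 ± 0.15, adjusted p = 0.00662), and Rnd1, a small GTPase that binds plexins (1.15 ± 0.25, adjusted p = 0.00983), rose in B6D2F1N. The other 3 that fell there were Chn1, Ngef and Srgap3. The list medians lay between -0.12 and 0.17, beside the medians of 0.01 and 0.15 over all genes.

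Markers of other cell types moved between the portions as well. Of 5 choroid plexus markers, 3 rose in C57BL/6J and 5 in B6D2F1N toward the posterior portion, with summed levels of 6.62 to 27.2 CPM against 117 to 1467 CPM in C57BL/6J and 7.10 to 933 CPM against 353 to 14314 CPM in B6D2F1N. Of 7 excitatory neuron markers, 3 fell and 1, Slc17a6, rose in C57BL/6J, and 4 fell and 1 rose in B6D2F1N, with summed levels of 938 to 1291 CPM against 559 to 1066 CPM and of 369 to 1292 CPM against 317 to 785 CPM. Of 8 inhibitory neuron markers 2 and 1 fell, of 8 astrocyte markers 3 rose in C57BL/6J and 2 rose and 1 fell in B6D2F1N, and none of 10 oligodendrocyte markers was called. Single markers fell in 3 further lists: Aif1 of 7 microglia and Rgs5 of 4 pericyte markers in B6D2F1N, and Drd1 of 7 striatal projection neuron markers in C57BL/6J. Summed levels overlapped between the portions in each of these 3 lists, as for pericytes in B6D2F1N with 274 to 708 CPM in anterior and 252 to 499 CPM in posterior libraries. Of 5 ependymal markers 2 and 4 rose. No marker of the lists named here was at 0 in every library of a group, except the ependymal genes Tmem212 and Dnah11 in 1 anterior C57BL/6J group each. The share of tallied reads that fell in no annotated feature was higher in the posterior library of 4 of 6 C57BL/6J mice (medians of 16.9% and 18.4%) and of 8 of 10 B6D2F1N mice (17.6% and 21.9%). The part of these cells and reads in the members' differences was not tested. Without B6D2F1N enriched mice 1 and 3, the mice with the most choroid plexus markers, the same 10 members were called in B6D2F1N, beside 2.358% of all genes. Without standard mouse 1, whose libraries lacked Xist, the same 10 were called too, beside 3.195% of all genes.

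The second comparison asks how members differ between strains within each portion and housing. C57BL/6J is an inbred strain and B6D2F1N a hybrid. By the study's account, training appeared longer in the inbred strain, above all in standard housing, and its mice were older at the end. The study found neither difference to be statistically significant. No comparison of strains here was adjusted for training length or age. In standard housing, 0 members passed in the anterior portion (0.37% of all genes) and 1 in the posterior portion (0.373%). In enriched housing 0 passed in the anterior (0.0639%) and 0 in the posterior portion (0.394%). At an unadjusted p under 0.05 there were 4, 10, 1 and 10 members in these 4 comparisons, or 5.8%, 14.5%, 1.45% and 14.5%, beside 9.0%, 10.3%, 4.33% and 9.11% of all genes.

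Ntng1 was the member called between strains. In the posterior portion in standard housing its levels were 18.9, 37.7, 24.2 and 36.2 CPM in C57BL/6J and 51.5, 126, 121, 112 and 125 CPM in B6D2F1N. All B6D2F1N libraries lay above all C57BL/6J libraries, and the lowest B6D2F1N level was from mouse 1. How many of all genes separated the strains in this way was not counted. The level of Ntng1 was 3.70-fold higher in B6D2F1N (log2 fold change 1.89 ± 0.30, adjusted p = 0.00927). The part of training length and age in this difference was not tested. Without mouse 1 the difference was 2.06 (adjusted p = 0.00124), and without C57BL/6J standard mouse 3 it was 1.81 and missed the threshold (adjusted p = 0.052). Without mice 4 and 5 it was 1.79 (adjusted p = 0.0355). Over all alternatives run its adjusted p lay between 4.19e-07 and 0.052. Summed choroid plexus markers in these libraries ran from 206 to 1467 CPM in C57BL/6J and from 353 to 4504 CPM in B6D2F1N, striatal markers from 84.3 to 369 CPM and from 80.5 to 842 CPM, and endothelial markers from 448 to 562 CPM and from 211 to 479 CPM. None of the 5, 7 and 7 markers of these lists was called between the strains there, and the part of these cells in the difference of Ntng1 was not tested. In enriched housing the posterior levels were 43.8, 44.6, 11.1 and 26.5 CPM in C57BL/6J and ran from 24.5 over 66.1 to 92.8 CPM in B6D2F1N, which overlapped (0.93 ± 0.39, adjusted p = 0.508). In the anterior portion the strains overlapped in both housings, with means of 20.4 and 25.8 CPM in standard housing.

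**Figure D5:**
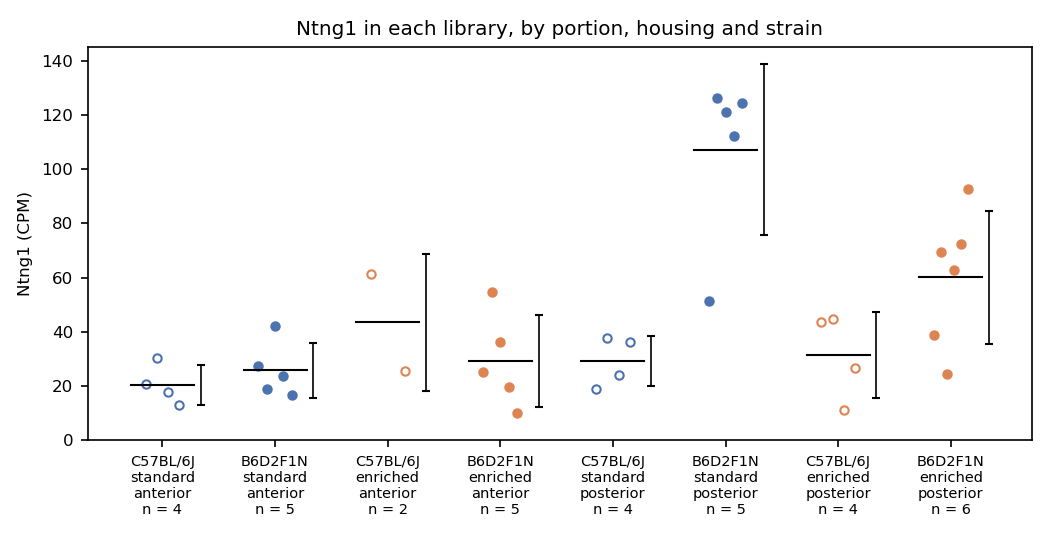
Level of Ntng1 in CPM in each of the 35 libraries by portion, housing and strain, with the mean as a line and the SD as a bar. In the posterior portion in standard housing the 5 B6D2F1N libraries ran from 51.5 to 126 CPM and the 4 C57BL/6J libraries from 18.9 to 37.7 CPM.

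Several members that differed between portions also had unadjusted p-values under 0.05 between strains without passing the adjusted threshold. The comparisons of strains and of portions share posterior libraries, so their results are not independent. In the posterior portion in standard housing, Sema3e (1.301 ± 0.43, adjusted p = 0.388), Sema3a (1.34 ± 0.58, adjusted p = 0.47), Epha3 (1.13 ± 0.38, adjusted p = 0.403) and Epha7 (0.71 ± 0.26, adjusted p = 0.431) had higher values in B6D2F1N. Without B6D2F1N standard mice 4 and 5, the mice with the most striatal markers, these differences were 1.55, 0.25, 0.53 and 0.41. In enriched housing they were 0.15 ± 0.46, 0.57 ± 0.42, 0.53 ± 0.44 and -0.58 ± 0.35, each at an unadjusted p above 0.05. Sema3c had lower values there in both housings (-0.93 ± 0.27, adjusted p = 0.299, and -0.81 ± 0.29, adjusted p = 0.475), and the first of these differences was -0.60 without mice 4 and 5. Efna5 had higher values in B6D2F1N in the posterior portion in standard housing (1.05 ± 0.31, adjusted p = 0.306, and 1.11 without mice 4 and 5) and not in enriched housing (-0.16 ± 0.28). Of the 3 Slits, 1 had an unadjusted p under 0.05 in the posterior portion in enriched housing, and 0 did in standard housing. In enriched housing their highest log2 fold change was 1.12, and their smallest adjusted p in edgeR's test was 0.484.

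The third comparison asks whether enriched housing changed members within a strain and portion. No member passed in any of the 4 comparisons, in which 0%, 0.0163%, 0% and 0% of all genes passed, for C57BL/6J anterior and posterior and B6D2F1N anterior and posterior in this order. At an unadjusted p under 0.05 there were 7, 9, 0 and 8 members (10.1%, 13.0%, 0% and 11.6%), beside 6.2%, 10.3%, 6.3% and 6.59% of all genes, and DESeq2 gave 0 members in each while calling 0.4373%, 1.301%, 0.03247% and 0.04995% of all genes. With no minimum count edgeR called 2 members in the anterior portion of C57BL/6J, Ntn5 (-3.81, adjusted p = 0.0252) and Ntng1 (1.09, adjusted p = 0.0378), with 0.9485% of all genes called under that setting. With the minimum of 10 counts and all mice, the smallest adjusted p of a member in edgeR's test was 0.397. It was that of Efnb2 in the posterior portion of C57BL/6J (log2 fold change -0.81 ± 0.28). The anterior C57BL/6J comparison rested on 2 enriched mice. Plxnb3, a plexin of oligodendrocytes, had higher values in enriched C57BL/6J mice in the anterior (1.19 ± 0.34, adjusted p = 0.599) and posterior portion (0.95 ± 0.33, adjusted p = 0.398). Of 10 oligodendrocyte markers 1, the myelin gene Mbp, was called in the latter comparison (1.97, adjusted p = 0.0366), and the median of the list was 0.84 in the anterior and 0.96 in the posterior portion. Summed levels of these markers were 8321 to 12906 CPM in standard and 18316 to 28803 CPM in enriched posterior libraries without overlap, and 8244 to 11032 CPM against 10408 and 25039 CPM in anterior ones. The part of these cells in the values of Plxnb3 was not tested. Ntng1 was lower in enriched B6D2F1N mice in the posterior portion (-0.85 ± 0.30, adjusted p = 0.752) and higher in enriched C57BL/6J mice in the anterior portion (1.09 ± 0.38, adjusted p = 0.741), and neither passed with the minimum of 10 counts. The interaction of strain with housing gave no called member (0% of all genes in each portion), with 1 member (1.45%) in the anterior and 5 (7.25%) in the posterior portion at an unadjusted p under 0.05, beside 5.98% and 8.38% of all genes.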

How the data were processed

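The deposited files hold raw counts of reads per gene for 35 libraries, which the authors made from single reads. The submitters' processing notes name FastQC 0.11.7, Trimmomatic 0.38, HISAT2 2.1.0, SAMtools 1.8, HTSeq 0.11.2 and the GRCm38 (mm10) build; the annotation release and the strand setting are not given in the sources used here. Rows that name no gene were left out; reads without a feature made up 13.7 to 26.4% of the tallied reads. Exons on the opposite strand overlap 14 members, by over 5% of exon length in Efna3, Efna4, Epha1, Ntn5, Plxna1 and Sema4c and by at most 2.68% in the other 8, Plxna4 among them; exons of another gene on the same strand overlap 14.0% of Ntng2, 1.38% of Plxnc1 and 1.35% of Sema4a. Counts of these genes are therefore uncertain, and how far the overlaps moved them was not tested.

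Genes with at least 10 counts over the libraries of a comparison were tested with edgeR 4.0.16 (R 4.3.3; TMM, quasi-likelihood F test, Benjamini-Hochberg over all genes tested, adjusted p at most 0.05). Portions were compared within a strain with the mouse as a block, since both libraries came from the same animal; the deviations of the 16 pairs correlated between -0.118 and 0.214 (median 0.0632 over 16022 genes). Strain and housing were compared in libraries of their groups. SEs are the log2 fold change over the square root of F. CPM used TMM over all libraries, and RPKM the exon length of GENCODE M21. The fit was tested on simulated counts. DESeq2 1.42.0, other filters and scalings and the omission of each mouse served as alternatives; omissions of pairs of mice by their marker levels were chosen after seeing the data.

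Full values are given for members called in both strains or in any strain, housing or interaction comparison, and for the 6 with the smallest p among those called in 1 strain; the highest member per length of each family and the 3 genes with the smallest p of each pathway list are also named. Other members were named after their values were seen. Members, lists and rules were chosen with earlier results of these data known.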

Additional observations from a re-analysis of the deposited data

Results flagged for a closer look

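Of 32 sets of values examined for a mouse far from the rest of its group, 2 held one, and chance gives about 5%. The posterior to anterior log2 ratio of Epha7 was -0.68 in C57BL/6J enriched mouse 1, whereas the other 5 mice lay between -2.93 and -2.25 with a median of -2.74. In the posterior library of this mouse the excitatory neuron markers summed to 1066 CPM, above the 938 CPM of its anterior library, whereas the posterior libraries of the other 5 mice held 559 to 805 CPM. Its choroid plexus markers, at 117 CPM, were the lowest of the C57BL/6J posterior libraries. The part of these cells in the ratio of Epha7 was not tested. The deviations of the 2 libraries of this mouse from their group means had the lowest correlation of the 16 pairs (-0.118). Its anterior group held only 2 libraries, whose deviations mirror each other, so this correlation does not describe mouse 1 alone. The level of Ntng1 in the posterior portion was 51.5 CPM in B6D2F1N standard mouse 1, against 112 to 126 CPM in the other 4 mice. This is the mouse whose libraries held 0 Xist counts, and the relation between these values was not tested.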

How the results depend on the processing

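DESeq2 called 17 members between portions in B6D2F1N, with 1994 genes called in all against 1110 by edgeR (C57BL/6J 1535 against 937, strains in the posterior portion in standard housing 392 against 94); the cause was not tested. The 12 and 10 members called by edgeR were all among its calls. Over all alternatives run, 9 to 16 members were called between portions in C57BL/6J and 10 to 17 in B6D2F1N. The number of all genes called moved with the setting as well, as the counts of edgeR and DESeq2 above show. These ranges are therefore not a result about the members alone. Leaving out each mouse gave 10 to 13 members between portions in either strain, beside 2.401 to 4.273% of all genes in C57BL/6J and 2.806 to 4.461% in B6D2F1N, and 0 to 1 between strains in the posterior portion in standard housing, beside 0.2385 to 0.6667%, where the call of Ntng1 was lost without C57BL/6J standard mouse 3. With no minimum count, 2 members, Ntn5 and Ntng1, were called for housing in the anterior portion of C57BL/6J. Without the pairing by mouse (no replicate block), 9 members were called in C57BL/6J (2.742% of all genes), without Plxna4, Plxna2 and Epha3, and 10 in B6D2F1N (4.222%). Of 23 calls of named members, 18 were kept under every alternative run. Calls were also gained 12 times: Sema4a in C57BL/6J was called under 4 of 11 alternatives (adjusted p from 0.00129 to 0.207 over all 11), and Epha3 (0.00861 to 0.319) and Plxna2 (0.00999 to 0.234) in B6D2F1N under 4 of 17 each, DESeq2 and no minimum count among them for all 3. Among values that were not called, the C57BL/6J portion difference of Ntng1 ran from -0.21 to 0.33 and that of Sema3c from -0.48 to 0.0812 when single mice were left out, so their sign was not settled. In C57BL/6J the SE of the portion difference was 1.64 for Efna4 and 1.41 for Epha1, which had 0 counts in 14 and 11 libraries, against 0.15 for Efnb3.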
